A study of Mus musculus with 24 samples.

Results

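A set of 8 mouse genes was followed through 6 genotypes of embryonic stem (ES) cells: Pnma5, Gm9, Gm364, Gpc4, Pgrmc1, Slc13a5, D14Ertd668e and Aard. They are 8 of the 37310 gene entries of each deposited table, and they had been picked because their RNA was lower after Smchd1 was removed from cells that already lacked the Tet enzymes. The values that chose them are therefore given as a description. The question tested was whether loss of Smchd1 lowers these genes when the Tet genes are intact. No such fall was detected: of the 7 that could be tested in Smchd1 KO against WT none fell and Pnma5 rose 1.88-fold, where 0.889% of all genes tested passed in either direction.

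SMCHD1 is a large SMC-type protein of chromatin that takes part in silencing the inactive X chromosome, imprinted genes and some gene clusters. The TET enzymes oxidise 5-methylcytosine, the methylated base found mainly at CG dinucleotides in mammals, and so start its removal. DUX is a homeobox transcription factor that activates genes of the early embryo. The 8 genes have no single shared function. Gpc4 encodes a glypican, a heparan sulphate proteoglycan held in the cell membrane by a lipid anchor, which binds growth factors and Wnt proteins. Pgrmc1 encodes a haem-binding membrane protein related to cytochrome b5. Slc13a5 encodes a sodium-coupled citrate transporter of the plasma membrane. Pnma5 belongs to the paraneoplastic Ma antigen family, which derives from the Gag gene of a retrotransposon. D14Ertd668e is named Phf11d in the GENCODE and RefSeq annotations and belongs to the PHD finger 11 family. Gm9 and Gm364 are predicted genes, and Aard is named for a domain rich in alanine and arginine.

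The quad KO cells lacked Smchd1 and all of Tet1, Tet2 and Tet3, and Tet TKO cells lacked the 3 Tet genes with Smchd1 intact. The Double KO cells lacked Smchd1 and Dux, the Smchd1 KO cells Smchd1 alone and the Dux KO cells Dux alone, and WT cells carried no knockout. All were grown without feeder cells on gelatin in serum with LIF, and total RNA was sequenced after removal of ribosomal RNA. Each genotype had 3 replicates, and those of WT and Smchd1 KO had been sequenced in 2 technical runs each, which were averaged and counted once. The labels do not say whether a genotype is 1 clone or several, so p-values measure the spread between these samples. Values are the deposited CPM (read counts scaled to the size of the library). The 4 genotypes from Double KO to WT stood in a first table and quad KO and Tet TKO in a second, each scaled on its own, so comparisons were made within a table. For each gene the fit pooled the spread over all genotypes of a table. Intervals and p-values in the first table thus also carry the spread of genotypes outside a comparison.

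Libraries held 11399770 to 74448358 gene reads in the first table and 27325307 to 34589966 in the second. The Smchd1 transcript followed the labels: it had 18.1, 12.2 and 40.02 CPM in quad KO against 151 to 161 CPM in Tet TKO, 71.0 to 87.9 CPM in Double KO against 174 to 213 CPM in Dux KO, and 46.2 to 76.5 CPM in Smchd1 KO against 203 to 207 CPM in WT. Dux RNA averaged at most 0.697 CPM in any genotype and checked little. Tet1 RNA had 289 ± 7.22 CPM in quad KO and 272 ± 3.21 CPM in Tet TKO (SD, n = 3 each), and as both carry the deletion this pair does not check it. The replicates of Tet TKO and WT lay nearly as close to each other as repeat runs of a sample. A ratio that is 1 where 2 libraries differ by counting error alone was 1.42 to 1.69 between Tet TKO replicates, 1.28 to 1.90 between WT replicates and 1.40 to 1.54 between runs of a WT replicate. It was 3.75 to 11.1 between quad KO replicates, 17.4 to 31.0 between Double KO replicates, 3.29 to 13.1 between Smchd1 KO replicates and 16.3 to 31.4 between Dux KO replicates. The ES cell markers were present throughout, with a summed level of 15 genes between 3590 and 6017 CPM in every sample.

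All 8 genes were lower in every quad KO sample than in every Tet TKO sample, which the choice of the genes fixed. The background was high: 37.7% of the 14920 genes tested in this comparison passed in either direction and 20.6% as lower, by limma with a Benjamini-Hochberg adjusted p under 0.05, and 28.2% were lower in all samples. Ranked from the largest fall among all genes tested, Aard stood 4th, Pnma5 7th, D14Ertd668e 14th, Slc13a5 15th, Gm9 17th and Gm364 35th. Pgrmc1 and Gpc4 stood at 216 and 219, so they were not among the largest falls in fold, and Sh3bgrl and Ttll13 on either side of Gpc4 had the same log2 change of -1.46. Ordered by the p of the fit in place of the fold, Pnma5, D14Ertd668e, Gm364, Pgrmc1, Gm9 and Gpc4 took ranks 3, 4, 5, 7, 8 and 9 among the genes that were lower, Slc13a5 rank 13 and Aard rank 325. Both orders use the values that chose the genes, so they describe the choice and test nothing. Gm9 entered this fit through Tet TKO alone, which made a fall likely. The 5 other genes with the largest falls were Xlr3a at -4.82, Pramel6 at -4.12, H19 at -4.11, Pramel7 at -3.93 and Inhbb at -3.91 on the log2 scale.

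**Figure D1:**
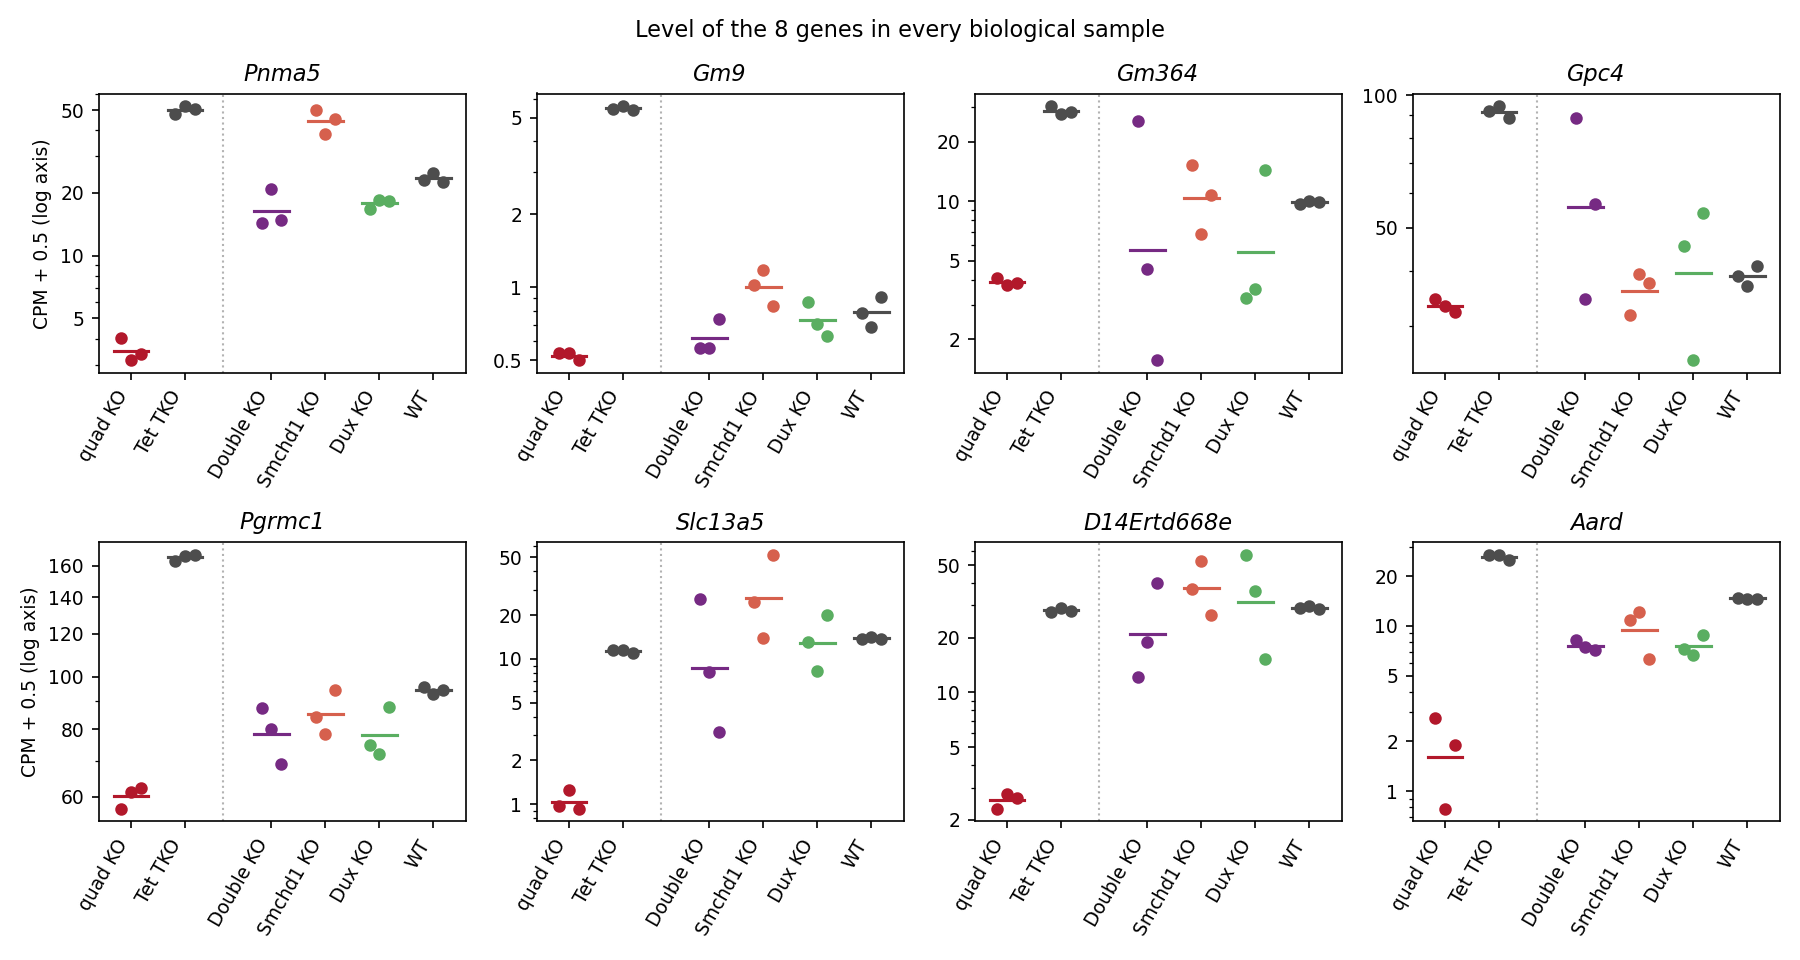
Level of each of the 8 genes in every biological sample, as CPM + 0.5 on a log axis; points are replicates, horizontal lines the mean on the log scale, and the dotted line separates the 2 tables, which were scaled separately. In all 8 panels quad KO lies below Tet TKO, while Smchd1 KO lies below WT in every sample for Aard alone and above it in every sample for Pnma5 alone.

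Promoter sequence was taken from RefSeq for 7 of the 8 genes, as the 250 bases before the annotated start in the mouse build GRCm38.p6. CG dinucleotides are the sites at which DNA methylation acts, and the genes differed widely in them. Pnma5 had 0 CG in its window, D14Ertd668e 2, Gm9 4, Gm364 10, Pgrmc1 and Gpc4 18 each, and the windows of the 2 annotated Slc13a5 starts 13 and 22. The median over 32851 mouse promoters was 6. The genes stood on both sides of that median. The 2 poorest and the 2 richest single-promoter windows on the X chromosome are shown from 5' to 3', with each CG in capitals.
Pnma5, chrX:73037104-73037353, minus strand: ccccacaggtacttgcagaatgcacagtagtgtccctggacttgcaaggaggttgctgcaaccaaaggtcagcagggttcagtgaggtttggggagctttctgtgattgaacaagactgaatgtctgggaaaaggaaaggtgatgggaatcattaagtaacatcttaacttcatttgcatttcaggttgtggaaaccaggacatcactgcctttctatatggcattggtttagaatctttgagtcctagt
Gm9, chrX:37211042-37211291, minus strand: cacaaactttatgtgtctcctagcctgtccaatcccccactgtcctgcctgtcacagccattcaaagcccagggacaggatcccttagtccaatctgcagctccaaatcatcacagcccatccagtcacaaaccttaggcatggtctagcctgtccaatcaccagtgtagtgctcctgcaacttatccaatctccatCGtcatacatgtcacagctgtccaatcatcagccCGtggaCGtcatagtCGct
Pgrmc1, chrX:36597943-36598192, plus strand: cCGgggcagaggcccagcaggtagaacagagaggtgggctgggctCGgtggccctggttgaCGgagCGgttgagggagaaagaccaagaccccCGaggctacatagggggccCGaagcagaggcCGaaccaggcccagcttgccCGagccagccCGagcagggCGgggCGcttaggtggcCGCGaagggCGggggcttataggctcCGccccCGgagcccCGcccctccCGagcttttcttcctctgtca
Gpc4, chrX:52164924-52165173, minus strand: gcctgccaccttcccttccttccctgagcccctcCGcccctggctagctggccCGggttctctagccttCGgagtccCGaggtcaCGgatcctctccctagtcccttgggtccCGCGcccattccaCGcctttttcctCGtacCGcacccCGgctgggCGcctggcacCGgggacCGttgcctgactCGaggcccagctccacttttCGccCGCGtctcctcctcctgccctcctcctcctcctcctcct

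Short motifs were counted on both strands of the same windows. The octamer ATGCAAAT, recognised by POU factors such as OCT4, was present once in the Pnma5 window, where it reads on the opposite strand, and in 1.60% of all promoters. The E-box CACGTG was present once in Gm364 and in 6.02% of all promoters. The GC box GGGCGG occurred in Pgrmc1 (4 times), Gpc4, Gm364 and both Slc13a5 windows, and in 32.7% of all promoters. TATAAA (12.4% of promoters) and TGACGTCA (1.55%) were in none of the 8 windows. CCAAT, which was counted after the sequences had been seen, occurred 5 times in Gm9, and 0.213% of promoters held 5 or more. None of these matches is a shown binding site.

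Loss of Smchd1 with the Tet genes intact was read from Smchd1 KO against WT. Of the 7 genes tested 1 rose, none fell and 6 did not pass, where 0.889% of the 16200 genes tested passed (0.648% higher and 0.241% lower). The median log2 change of the 7 genes was 0.07, against 0.00 over all genes. In the absence of Dux, Double KO against Dux KO, none of the 7 passed, where 0.0123% of all genes did (0.00617% lower and 0.00617% higher). A count of 0 falls among 7 is near these shares in both comparisons and is by itself no result about the genes. The ranges of all 8 genes overlapped there, while 3.1% of all genes had all samples lower and 3.05% all samples higher. The smallest unadjusted p among the 7 was 0.142, for Gpc4, and edgeR and DESeq2 on the recovered reads also called none of them there. Over all genes 9.77% had an unadjusted p under 0.05 in that comparison, and 2 passed after adjustment. Gm9 was under the filter of 0.5 CPM in 3 samples in the first table and was not tested there.

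**Figure D2:**
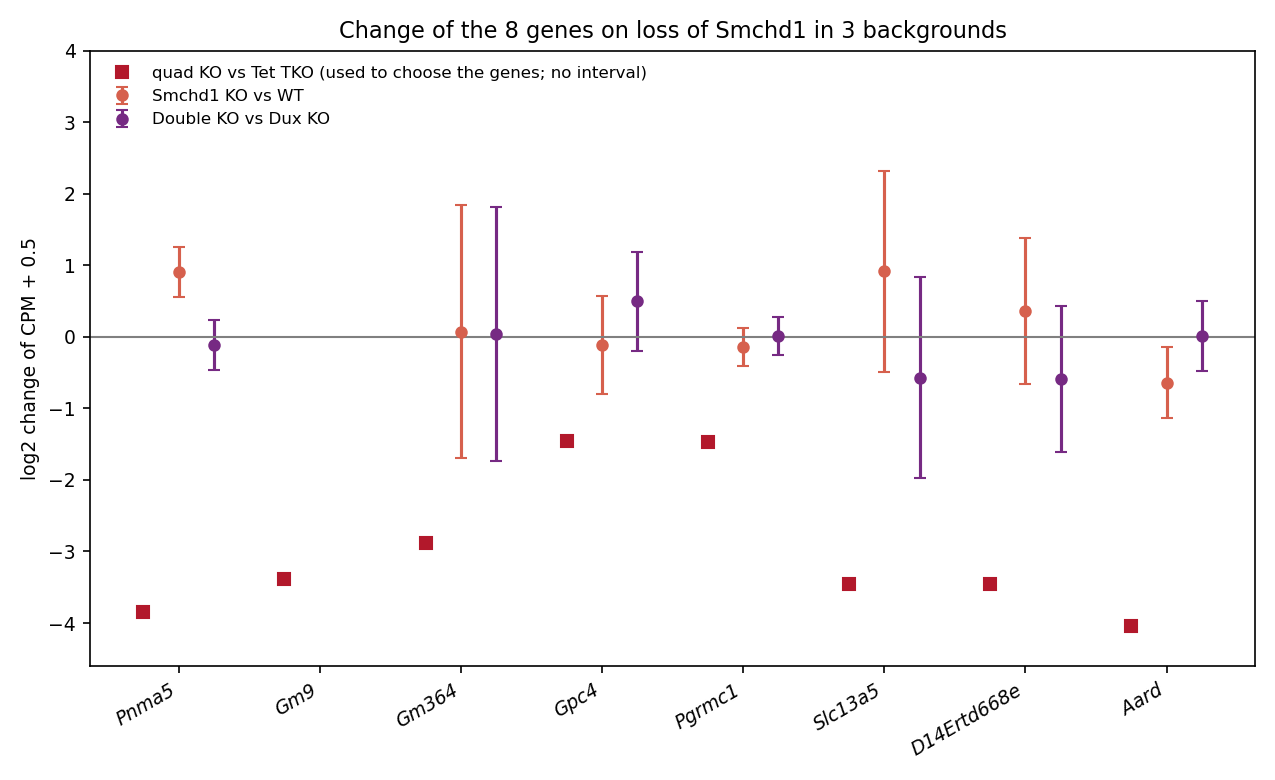
Log2 change of CPM + 0.5 for each gene on loss of Smchd1; squares are quad KO vs Tet TKO, which chose the genes and carries no interval, and circles with bars are Smchd1 KO vs WT and Double KO vs Dux KO with 95% intervals from limma. In Smchd1 KO vs WT the interval of Pnma5 lies above 0 and that of Aard below 0, though Aard did not pass after adjustment, and the other 5 span 0; Gm9 was not tested outside quad KO vs Tet TKO.

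Gpc4, the glypican, had 34.0, 32.7 and 31.7 CPM in quad KO, against 91.3, 93.8 and 88.4 CPM in Tet TKO. The ratio of the means was 2.78, and replicates of a genotype differed little. With the Tet genes intact the gene had 31.3, 38.7 and 37.0 CPM in Smchd1 KO, against 38.3, 36.4 and 40.5 CPM in WT. These ranges overlapped, and the log2 change of -0.11 (95% interval -0.80 to 0.58, limma adjusted p = 0.892) did not pass. The change in quad KO against Tet TKO was -1.46 on the same scale. Double KO had 88.4, 34.1 and 56.0 CPM, against 45.0, 24.6 and 53.6 CPM in Dux KO. Replicates there were spread over more than the difference between the genotypes (0.50, adjusted p = 0.655).

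Gpc3, another glypican gene and the next one to Gpc4 along the X chromosome, rose 2.03-fold in Smchd1 KO against WT (101 ± 25.9 CPM against 48.5 ± 0.540 CPM, SD, n = 3 each; limma adjusted p = 0.0115). In quad KO against Tet TKO it fell 1.804-fold (12.5 ± 2.12 CPM against 22.7 ± 1.67 CPM; adjusted p = 0.00147). The Smchd1 effect on Gpc3 was lower without Dux than with it, by -1.27 on the log2 scale (interaction, adjusted p = 0.0374, a call lost in 12 of 20 alternatives). Without WT replicate 1, 2 or 3 or Smchd1 KO replicate 3 the adjusted p of the Gpc3 rise was 0.0753, 0.0643, 0.0727 and 0.0513, in that order, with log2 changes of 0.82 to 1.03. Of 20 tested genes of the glypican and heparan sulphate list (core proteins, chain synthesis and sulphatases) Gpc3 alone passed in Smchd1 KO against WT, and none passed in Double KO against Dux KO. In quad KO against Tet TKO 5 fell, 2 rose and 13 did not pass, and the list's median was -0.14 against -0.01 for all genes. As 20.6% of all genes passed there as lower and 17.1% as higher, these counts among 20 are near the background. The sulphatase genes Sulf1 and Sulf2, whose products remove sulphate groups from heparan sulphate, fell 2.00-fold and 1.67-fold, and Notum, a secreted esterase that acts on Wnt proteins, fell 1.94-fold. Sulf1 had 25.1 ± 11.98 CPM in quad KO and 47.0 ± 0.499 CPM in Tet TKO, and its call was lost without any 1 Tet TKO replicate or quad KO replicate 1 (adjusted p 0.0811 to 0.0885) and by DESeq2 (0.0663).

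Pgrmc1, the haem-binding membrane protein gene, had 56.6, 60.9 and 61.8 CPM in quad KO, against 163, 167 and 167 CPM in Tet TKO. Its ratio of means was 2.77. In Smchd1 KO it had 83.8, 78.0 and 93.8 CPM, against 95.0, 92.2 and 94.1 CPM in WT, with overlap at the top of the Smchd1 KO range. The log2 change of -0.14 (95% interval -0.41 to 0.12, adjusted p = 0.593) did not pass, while that in quad KO against Tet TKO was -1.46. Double KO had 86.9, 79.7 and 68.6 CPM, against 74.3, 71.4 and 87.4 CPM in Dux KO, and the log2 change was 0.01 (95% interval -0.25 to 0.28). Of 8 tested relatives of Pgrmc1 none passed in Smchd1 KO against WT or in Double KO against Dux KO. In quad KO against Tet TKO Cyb5b, a cytochrome b5 gene, passed with a 1.19-fold fall, and with chromosome medians centred its log2 change was -0.02 (adjusted p = 0.801). Over all genes 20.6% passed there as lower.

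Slc13a5, the citrate transporter, was nearly silent in quad KO, with 0.468, 0.742 and 0.431 CPM, against 10.99, 10.99 and 10.5 CPM in Tet TKO. The ratio of the means was 19.8. With the Tet genes intact its level differed widely between replicates. It had 24.3, 13.3 and 51.6 CPM in Smchd1 KO, against 13.2, 13.7 and 13.2 CPM in WT. Its log2 change was 0.92 (95% interval -0.49 to 2.32, adjusted p = 0.508). The replicates of Smchd1 KO spanned 3.78-fold on the fitted scale (log2 range 1.92), while the 2 technical runs of a replicate differed by at most 0.26. The columns of Smchd1 KO had been joined as runs for being the most alike over all genes, which favours small differences between runs. Double KO had 25.4, 7.64 and 2.61 CPM, against 12.5, 7.69 and 19.7 CPM in Dux KO.

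Within each knockout genotype of the first table the level of Slc13a5 went in the order of markers of endoderm. Its highest sample in each was also the highest for markers of trophoblast and, at low levels, of mesoderm. All of these are lineages into which ES cells can differentiate. The share of all genes with such an order of replicates is not given here. The summed level of 10 endoderm markers (11 gene entries) was 2597, 385 and 139 CPM in Double KO, 977, 651 and 2736 CPM in Smchd1 KO, 725, 441 and 1319 CPM in Dux KO and 681, 665 and 689 CPM in WT. Within Double KO, Smchd1 KO and Dux KO the replicates had the same order for the marker sum and for Slc13a5. Within WT, where both varied little, the order was not the same. Gm364 shared the order in Double KO only. The summed level of 7 trophoblast markers was highest in the replicate of each of the 3 knockout genotypes that had the most Slc13a5. It was 725, 145 and 154 CPM in Double KO and 86.3, 99.9 and 181 CPM in Smchd1 KO. In Dux KO it was 35.4, 25.7 and 206 CPM, against 68.4 to 72.8 CPM in WT. The summed level of 6 mesoderm markers was highest in the same replicates. It was 7.24, 3.24 and 4.75 CPM in Double KO and 3.90, 3.59 and 4.58 CPM in Smchd1 KO. In Dux KO that mesoderm sum was 2.61, 3.37 and 4.52 CPM, against 3.28 to 4.20 CPM in WT. Of 9 tested endoderm entries 1 passed in Smchd1 KO against WT, Hnf4a, a liver and endoderm transcription factor gene, which had 6.95 ± 0.917 CPM in Smchd1 KO and 2.19 ± 0.0868 CPM in WT (2.76-fold, adjusted p = 0.0227), and that call was lost without any 1 replicate (adjusted p 0.0987 to 0.151). In the second table the marker sum was 163 to 239 CPM in quad KO and 224 to 228 CPM in Tet TKO, and Slc13a5 was low in all 3 quad KO samples, including replicate 2 with the highest sum. Of 8 tested endoderm entries there 2 rose and 4 fell, with a median log2 change of -0.89. Of all genes tested there 17.1% passed as higher and 20.6% as lower. The falls included Lama1, a laminin chain gene, at -1.90 and Hnf4a at -1.69. Hnf4a entered the test through Tet TKO alone, which made a fall likely. The rises were those of Gata4 at 0.87 and Dab2 at 0.47, and the call of Dab2 was lost in 2 of 14 alternatives. In bulk RNA fewer cells of a type and less RNA per cell cannot be told apart. The part of endoderm-like, trophoblast-like or mesoderm-like cells in the level of Slc13a5 was not tested.

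**Figure D3:**
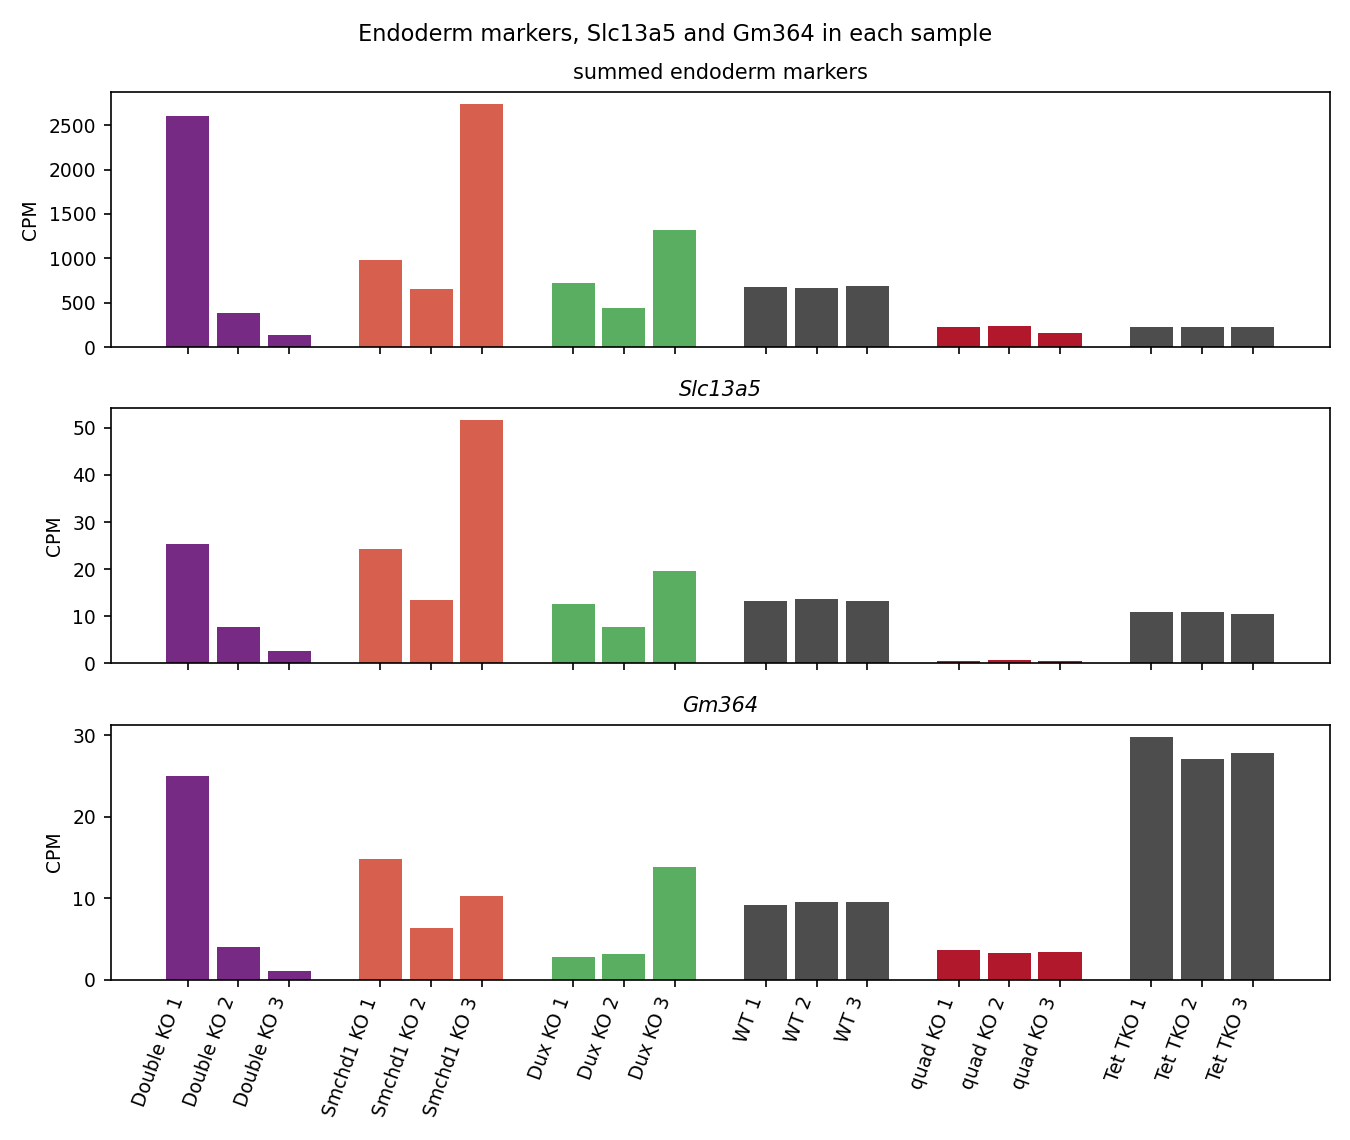
Summed CPM of the endoderm markers (top), Slc13a5 (middle) and Gm364 (bottom) in each of the 18 biological samples, as bars from 0. The sum and Slc13a5 peak together in Double KO replicate 1 (2597 and 25.4 CPM), Smchd1 KO replicate 3 (2736 and 51.6 CPM) and Dux KO replicate 3 (1319 and 19.7 CPM), while Slc13a5 in quad KO stays under 1 CPM at marker sums of 163 to 239 CPM, against 224 to 228 CPM in Tet TKO.

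Of 10 tested genes of citrate and dicarboxylate transport and use, none passed in Smchd1 KO against WT or in Double KO against Dux KO. In quad KO against Tet TKO 3 fell, among them Slc25a11, a mitochondrial carrier of oxoglutarate and malate (1.52-fold, adjusted p = 0.00996), and Slc25a10, a mitochondrial dicarboxylate carrier (1.27-fold). As 20.6% of all genes passed there as lower, 3 of 10 is near the background. The call of Slc25a10 was lost without Tet TKO replicate 1 or 2 (adjusted p 0.0644 and 0.0695). The annotation places 1700051A21Rik on the opposite strand over Slc13a5, and 7.37% of the 50-base words of Slc13a5 lie in it too. The deposited tables do not say whether counting used strand. That gene averaged 0 CPM in quad KO, 0.0212 CPM in Tet TKO, 0.0700 CPM in Smchd1 KO and 0.0882 CPM in WT.

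Pnma5 showed opposite changes in the 2 settings. It had 3.54, 2.65 and 2.87 CPM in quad KO, against 47.3, 51.7 and 50.2 CPM in Tet TKO, a ratio of means of 16.5. In Smchd1 KO it had 49.5, 37.7 and 44.8 CPM, against 22.5, 24.5 and 22.1 CPM in WT. Every Smchd1 KO sample was thus above every WT sample (28.2% of all genes had all samples higher), and the log2 change was 0.91 ± 0.16 (SE; 95% interval 0.56 to 1.26; adjusted p = 0.0214). The call held under the other pseudocounts, filters, tools and scalings tried. It was lost when WT replicate 1, 2 or 3 (adjusted p 0.138, 0.0885 and 0.147) or Smchd1 KO replicate 1 or 3 (0.176 and 0.151) was left out, with log2 changes of 0.82 to 0.95.

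The rise of Pnma5 in Smchd1 KO was not found in Double KO, which had 13.9, 20.3 and 14.4 CPM, against 16.3, 17.9 and 17.8 CPM in Dux KO (log2 change -0.12, 95% interval -0.47 to 0.24, adjusted p = 0.882). Set against Smchd1 KO, Pnma5 fell 2.69-fold in Double KO (log2 change -1.43, 95% interval -1.78 to -1.07, limma adjusted p = 0.000396), 1 of 7 genes to pass, where 4.38% of all genes passed and 2.98% as lower. The test of the difference itself, the Smchd1 effect without Dux minus that with Dux, gave -1.02 (95% interval -1.52 to -0.53) with an adjusted p of 0.0746, and 0.512% of all genes passed it (0.358% lower and 0.154% higher). The difference passed in 3 of 20 alternatives. These were DESeq2 (adjusted p = 0.00283), the fit without Dux KO replicate 1 (0.0390) and that without Double KO replicate 2 (0.0123). In the other 17 it did not pass, with an adjusted p of up to 0.233. In Dux KO all samples were lower than in WT, but the log2 change of -0.40 did not pass (adjusted p = 0.148). The order in the first table was therefore Smchd1 KO, WT, then Dux KO and Double KO, whose ranges overlapped with each other only.

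Of 9 tested relatives of Pnma5 none passed in Smchd1 KO against WT or in Double KO against Dux KO. In quad KO against Tet TKO 7 were tested, and Zcchc18 and Zcchc12 rose 1.803-fold and 1.74-fold, Ldoc1 fell 2.95-fold and 4 did not pass. As 17.1% of all genes passed there as higher and 20.6% as lower, these counts are near the background. Pnma3, the next gene on the X chromosome, shares 25.9% of the 50-base words of Pnma5, so reads of the pair could be split in the authors' counting. Pnma3 itself had 0.117 ± 0.0437 CPM in quad KO, 0.544 ± 0.249 CPM in Tet TKO, 0.522 CPM on average in Smchd1 KO and 0.258 CPM on average in WT.

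D14Ertd668e (Phf11d) had 1.804, 2.26 and 2.15 CPM in quad KO, against 27.3, 28.5 and 27.4 CPM in Tet TKO. The ratio of means was 13.4, with little spread in either genotype. In Smchd1 KO it had 36.5, 52.2 and 26.0 CPM, against 28.5, 29.2 and 28.0 CPM in WT. The 3 Smchd1 KO samples lay on both sides of WT, and the log2 change of 0.36 (95% interval -0.66 to 1.38, adjusted p = 0.738) did not pass. Double KO had 11.6, 18.4 and 39.3 CPM, against 56.4, 35.4 and 14.8 CPM in Dux KO, with a log2 change of -0.59 (95% interval -1.61 to 0.43, adjusted p = 0.744). The annotation holds close copies of the gene, and 8.09% of its 50-base words occur in Phf11c, Phf11a, Phf11b or Gm6904. Of the PHD finger list 2 genes could be tested, and neither passed in Smchd1 KO against WT or in Double KO against Dux KO. Phf11c, the next gene, is entered as Gm6907 and was tested outside that list. Its log2 change was 0.03 in Smchd1 KO against WT (limma adjusted p = 0.962), -0.37 in Double KO against Dux KO (0.625) and -0.27 in quad KO against Tet TKO (0.281). In Dux KO against WT it was 1.15 (0.0210), a call lost in 5 of 15 alternatives. Phf6, which is X-linked, fell 1.15-fold in quad KO against Tet TKO, a direction that turned to a log2 change of 0.02 with chromosome medians centred; without Tet TKO replicate 1 or 2 its adjusted p was 0.0502 and 0.0634. Setdb2, a histone methyltransferase family gene that is its second neighbour, fell 1.19-fold in quad KO against Tet TKO (adjusted p = 0.0195), and Tet TKO replicate 2 or 3 left out gave 0.0869 and 0.0922.

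Gm9 had almost no reads in quad KO. It had 0.0334, 0.0353 and 0 CPM in quad KO, which were 1, 1 and 0 reads, against 4.92, 5.08 and 4.89 CPM in Tet TKO. From 2 reads in quad KO and 461 in Tet TKO the ratio was 213. These values chose the gene, so the ratio is a description, and with 2 reads it is imprecise. In the first table it was low in every genotype: 0.0619, 0.0612 and 0.238 CPM in Double KO, 0.522, 0.675 and 0.333 CPM in Smchd1 KO, 0.373, 0.206 and 0.131 CPM in Dux KO and 0.280, 0.184 and 0.412 CPM in WT. With no filter on low values the log2 change in Smchd1 KO against WT was 0.35 (adjusted p = 0.490). The WT replicates held 69 reads of Gm9 in all and the Double KO replicates 6, so small differences were not detectable at this depth.

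Gm364 had 3.61, 3.25 and 3.37 CPM in quad KO, against 29.8, 27.1 and 27.9 CPM in Tet TKO, a ratio of means of 8.28. In Smchd1 KO it had 14.7, 6.36 and 10.2 CPM, against 9.17, 9.50 and 9.48 CPM in WT. The Smchd1 KO samples lay around WT, and the log2 change was 0.07 with a wide interval of -1.70 to 1.84 (adjusted p = 0.976). That interval pools the spread of the 4 genotypes. On the log2 scale the SD was 2.03 in Double KO, 1.20 in Dux KO, 0.58 in Smchd1 KO and 0.027 in WT. Double KO had 24.9, 4.04 and 1.07 CPM, against 2.76, 3.09 and 13.8 CPM in Dux KO. The spread within Double KO was larger than any difference between genotype means of that table.

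Aard had 2.27, 0.283 and 1.40 CPM in quad KO, against 26.5, 26.2 and 24.7 CPM in Tet TKO. Its ratio of means was 19.6, and its quad KO replicates varied most in proportion among the genes above 1 CPM there, at 1.32 ± 0.997 CPM (SD, n = 3). Aard came nearest to a fall with the Tet genes intact. It had 10.3, 11.7 and 5.83 CPM in Smchd1 KO, against 14.3, 14.1 and 14.1 CPM in WT, so that all 3 Smchd1 KO samples were lower, as were those of 29.6% of all genes. The log2 change was -0.64 (95% interval -1.13 to -0.15, unadjusted p = 0.0155), and it did not pass (limma adjusted p = 0.208, and 0.0545 to 0.558 over the alternatives).

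Without Dux, no change of Aard was detected on loss of Smchd1. It had 7.73, 6.91 and 6.65 CPM in Double KO, against 6.79, 6.18 and 8.26 CPM in Dux KO (log2 change 0.01, 95% interval -0.48 to 0.51). Aard fell in Dux KO, to 7.08 ± 1.07 CPM in Dux KO against 14.2 ± 0.118 CPM in WT (1.95-fold, adjusted p = 0.0434). It was 1 of 7 genes to pass in Dux KO against WT, where 3.98% of all genes passed (2.35% lower and 1.63% higher). The call was lost with no filter on low values (adjusted p = 0.0654), and when WT replicate 1, 2 or 3 (0.173, 0.163 and 0.166) or Dux KO replicate 1 or 2 (0.0609 and 0.134) was left out.

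Of the 8 genes, 5 lie on the X chromosome: in order along it, Pgrmc1, Gm9, Gpc4, Gm364 and Pnma5. That is 62.5%, against 3.86% of the 14920 genes tested in the second table (576 genes). They do not form 1 cluster, since 23, 180, 98 and 190 other gene entries lie between neighbours in that order. Slc13a5 lies on chromosome 11, D14Ertd668e on chromosome 14 and Aard on chromosome 15. The rule chose genes on their fall, so this share describes them. Of the 50 genes with the largest fall in quad KO against Tet TKO, 18 were X-linked.

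The X chromosome was 1 of the 3 chromosomes with the lowest median change in quad KO against Tet TKO. The median log2 change of its genes was -0.22, against -0.00 for autosomal genes, and 46.4% of X-linked genes passed as lower (267 genes) and 12.8% as higher, where 19.7% of autosomal genes passed as lower. The median X-linked deviation was -0.13, -0.11 and -0.11 in quad KO and 0.10, 0.11 and 0.13 in Tet TKO, and the 2 genotypes did not overlap. Chromosomes 6 and 8 had medians of -0.25 and -0.24, as low as that of X, chromosome 12 had -0.11 and the other autosomes lay between -0.02 and 0.05. None of the 8 genes lies on chromosome 6, 8 or 12. In Smchd1 KO against WT the X median was 0.04, with 0 of 591 genes lower and 8 higher, and in Double KO against Dux KO it was 0.02. With the median of each chromosome centred in every sample, the log2 change in quad KO against Tet TKO was -1.24 for Pgrmc1, -1.23 for Gpc4, -2.65 for Gm364, -3.16 for Gm9 and -3.61 for Pnma5.

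The 3 nearest gene entries on each side of each gene gave 47 others, chosen by position. In quad KO against Tet TKO 22 could be tested: 13 fell, 1 rose and 8 did not pass, where 20.6% of all genes passed as lower. On the X chromosome 11 of 14 neighbours fell, with a median log2 change of -0.85, where 46.4% of all X-linked genes tested passed as lower. Of these 14, Xlr3a, Xlr4a, Rhox1 and Rhox2a were under 0.5 CPM in every quad KO sample and entered the test through Tet TKO alone, which made a fall likely. Of the other 10, 7 fell, with a median of -0.73. Near the autosomal genes 2 of 8 fell and 1 rose, with a median of -0.10, and Xaf1 among the falls likewise entered through Tet TKO alone. As 19.7% of all autosomal genes passed as lower, 2 of 8 is near the background. Of 23 neighbours tested in Smchd1 KO against WT none fell and 1, Gpc3, rose, and of 23 tested in Double KO against Dux KO none passed. With 0.241% of all genes passing as lower in Smchd1 KO against WT and 0.00617% in Double KO against Dux KO, a count of 0 among 23 is near the background and is not a result about the neighbours.

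Next to Pnma5 lie Xlr4a and Xlr3a, of the X-linked lymphocyte-regulated family. Xlr3a had 0.183 ± 0.136 CPM in quad KO and 18.5 ± 0.802 CPM in Tet TKO (log2 change -4.82), and Xlr4a had 0.0111 ± 0.0193 CPM and 5.19 ± 0.873 CPM in the same genotypes (-3.47). Next to Gm9 lie genes of the reproductive homeobox (Rhox) cluster. Rhox1 had 0.186 ± 0.144 CPM in quad KO and 5.89 ± 0.309 CPM in Tet TKO (-3.24), and Rhox2a fell by 1.47 on the log2 scale. Both gene families hold near-identical copies, among which reads could be split. On the other side of Gm9, Rnf113a1, a ring finger gene, fell 1.81-fold and Ndufa1, a subunit of respiratory complex I, fell 1.44-fold.

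Among neighbours of the other genes, Gm14569 beside Pgrmc1 fell 3.44-fold, to 0.912 ± 0.4996 CPM in quad KO against 4.18 ± 0.287 CPM in Tet TKO, and Akap17b on its other side fell 1.72-fold. Xaf1, an apoptosis-associated gene near Slc13a5, fell 3.30-fold (0.279 ± 0.0392 CPM in quad KO and 2.09 ± 0.342 CPM in Tet TKO). Txndc17 and Med31, on the other side of Slc13a5, had log2 changes of -0.09 and -0.12 and did not pass. Around Aard, Rad21 and Utp23 had log2 changes of -0.08 and 0.00 and did not pass, and Eif3h, a translation initiation factor subunit, rose 1.20-fold.

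**Figure D4:**
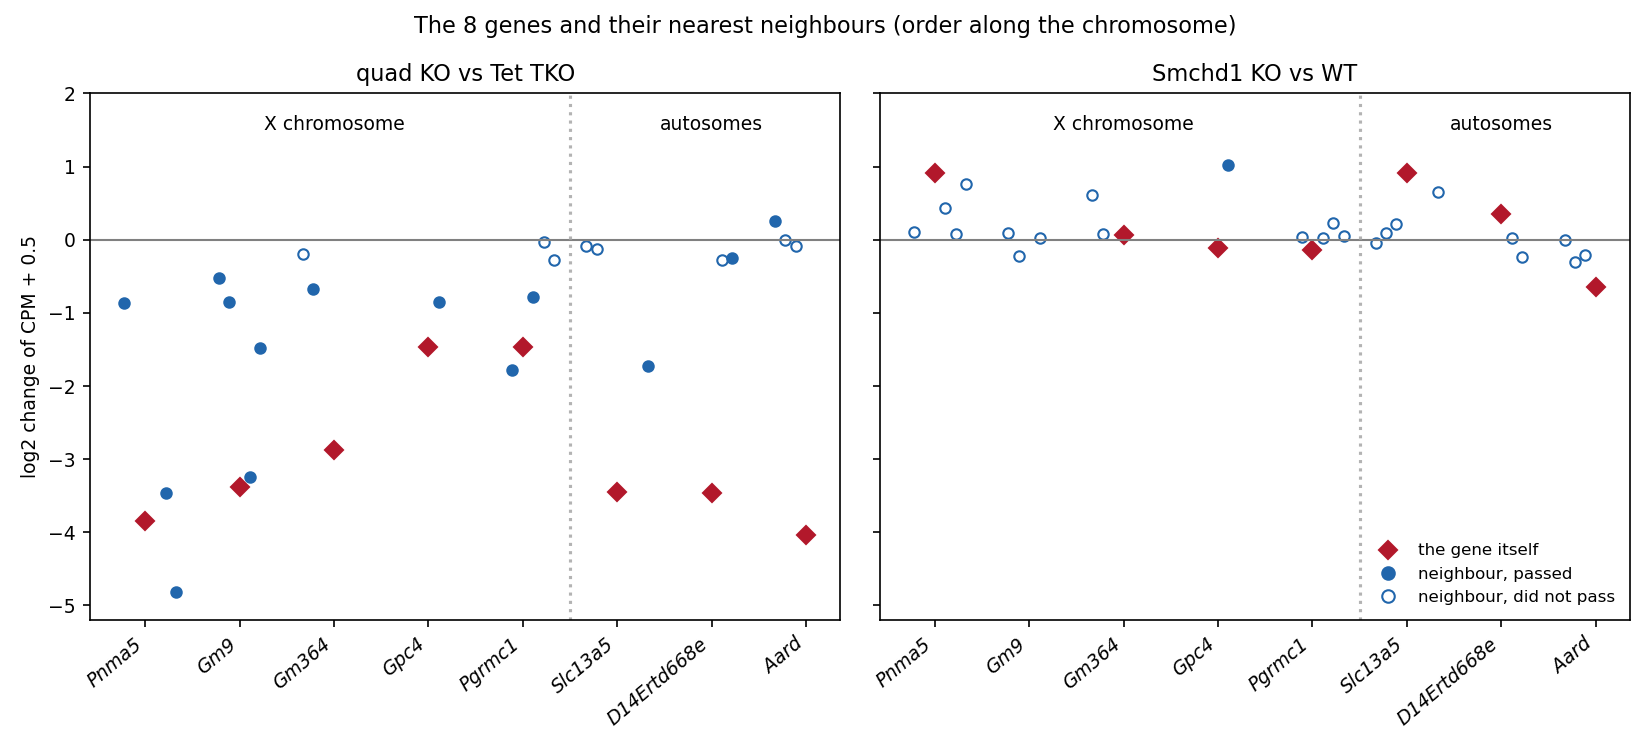
Log2 change of CPM + 0.5 of each gene (diamonds) and of its tested neighbours (circles, placed by order along the chromosome; filled where limma's adjusted p was under 0.05), in quad KO vs Tet TKO (left) and Smchd1 KO vs WT (right). On the left 11 of 14 X-linked neighbours are filled and below 0, where 46.4% of all X-linked genes tested passed as lower. On the right 1 of 23 neighbours, Gpc3, is filled and lies above 0.

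Markers of cell state also differed between quad KO and Tet TKO. Of 15 tested pluripotency genes 8 fell and 3 rose. The largest falls were those of Nanog (5.28-fold), Tbx3 (4.84-fold), Esrrb (3.78-fold) and Klf4 (3.35-fold), all transcription factor genes of naive ES cells. The genes that rose were Klf2, Dppa5a and Lin28a, with log2 changes of 0.43, 0.29 and 0.20. The limma adjusted p of Lin28a reached 0.0504 with a replicate left out. The summed level of the 15 was 4733 to 4970 CPM in quad KO and 5544 to 5685 CPM in Tet TKO. Of 6 tested trophoblast genes 5 rose (sum of 7 genes 267 to 511 CPM in quad KO and 195 to 204 CPM in Tet TKO), with Cdx2, a trophoblast transcription factor gene, 2.96-fold higher. All 3 tested mesoderm genes rose, at a low summed level of 6 genes (14.4 to 18.1 CPM in quad KO and 9.44 to 10.5 CPM in Tet TKO). Of 8 fibroblast genes 5 rose, and of 5 neural genes 4 rose and 1, Tubb3, fell (log2 change -0.89). Col3a1, among the fibroblast rises, entered the test through quad KO alone, which made a rise likely. Of all genes tested 17.1% passed as higher and 20.6% as lower. Without 1 Tet TKO replicate several of these calls were lost: T without replicate 2 or 3 (adjusted p 0.0674 and 0.0607), Kdr without replicate 1 or 2 (0.0585 and 0.0571), and Acta2, Col3a1 and Pax6 without any 1 of the 3 (0.0563 to 0.128). Pax6 was lost in 7 of 14 alternatives and Kdr also without quad KO replicate 1 (0.0544). Of all marker entries in these 2 genotypes, a second entry of the endoderm gene Dab2 alone was at 0. In Smchd1 KO against WT none of the pluripotency, trophoblast, mesoderm, neural and fibroblast genes passed, where 0.889% of all genes did. No calls among so few genes is near that share. The trophoblast sum was 86.3 to 181 CPM in Smchd1 KO and 68.4 to 72.8 CPM in WT. The neural sum was 63.5 to 102 CPM in Smchd1 KO and 103 to 107 CPM in WT. The pluripotency, mesoderm and fibroblast sums overlapped between these genotypes. The part of these differences in the levels of the 8 genes was not tested.

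For each gene but Gm9, which was under the filter in the first table, the single other gene with the most similar pattern over the 18 biological samples of both tables was found, by Pearson's r of log2(CPM + 0.5) centred within each table, among 14549 genes. It was Gm650, also X-linked, for Pnma5 (r = 0.96, Spearman's rho = 0.95), Inhbb for D14Ertd668e (0.97 and 0.91), Tmem150a for Gm364 (0.92 and 0.95) and 4930444M15Rik for Slc13a5 (0.95 and 0.94). It was Vash1 for Aard (0.97 and 0.88), Parvb for Pgrmc1 (0.94 and 0.88) and Mme for Gpc4 (0.93 and 0.91). Each of these 7 genes had a different partner, and none was another of the 8. The quad KO and Tet TKO values that chose the genes enter each r. These are the highest values among many genes over samples that share libraries and are given as a description.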

How the data were processed

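RNA sequencing of mouse ES cells of 6 genotypes gave 24 libraries. Per the submitters' processing notes, the tools were Trim Galore, STAR 2.5.1 and limma 3.38.2 and the genome build was mm9; the counter and annotation are not given in the sources used here. The authors deposited 2 tables of a normalized signal per gene, named CPM. Whole reads were recovered from the deposited values: for values below 200 reads, 100% came out whole to within 0.1 read. The second table holds 3 columns of per-sample values under a WT name that match no single sample of the series, which were not used. The Smchd1 KO columns carry no replicate number, so its 6 columns were paired by the smallest difference between libraries, given that the labels state 2 runs for each of 3 replicates; its replicate numbers here are only names.

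A gene was tested where 3 or more biological samples of its table reached 0.5 CPM (16200 and 14920 genes). limma 3.58.1 (R 4.3.3) fitted a mean for each genotype to log2(CPM + 0.5), over the whole table, with a mean-dependent prior variance. The added 0.5 makes fold changes of low genes smaller than ratios of CPM, and tests were two-sided with Benjamini-Hochberg adjustment over all genes tested. Errors are SD over 3 replicates unless named. edgeR 4.0.16 and DESeq2 1.42.0 were run on the recovered reads as alternatives, beside other pseudocounts, filters, scalings and left-out replicates. Fits were tested on simulated data. Tet TKO against WT was not analysed here. Chromosomes and neighbours came from GENCODE M21 (87.4% of entries matched), and gene coordinates are not printed because builds differ.

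The 8 genes and all gene lists were chosen with earlier results of these data known. Other genes named are, by rule, up to 4 per list by size of change among those that passed, the 3 nearest entries on each side, the 5 largest other falls and the most similar gene; the genes around rank 219 and those that make up a small count are named in addition, except 1 that is not reported here.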

Additional observations from a re-analysis of the deposited data

Results flagged for a closer look

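Pnma5 moved in opposite directions on loss of Smchd1 in the 2 settings, with every sample on its side. Its log2 change was 0.91 in Smchd1 KO against WT and -3.84 in quad KO against Tet TKO, and the second of these values chose the gene. The difference between the 2 was not tested, since it would cross tables that were scaled separately. Groups of 3 replicates were too small for the search for single samples far from the others.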

How the results depend on the processing

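For Smchd1 KO against WT 144 genes passed, 71 with a filter of 2 CPM, 230 by edgeR, 1084 by DESeq2, 6763 with 2 genotypes in the fit and 37 to 56 with 1 replicate left out. For Double KO against Dux KO 2 passed, 12 with no filter, 220 by DESeq2, 4 with chromosome medians centred, 0 with 2 genotypes and 0 to 146 with a replicate left out. For Dux KO against WT 644 passed, 338 with no filter, 2606 by DESeq2 and 2 to 2797 with a replicate left out. For Double KO against Smchd1 KO 709 passed, 2456 by DESeq2 and 50 to 2422 with a replicate left out. The interaction gave 83, 9 with a pseudocount of 0.1, 11 with a filter of 2 CPM, 7 by edgeR, 948 by DESeq2 and 0 to 1216 with a replicate left out. For quad KO against Tet TKO 5619 passed, and 3329 to 7520 with a replicate left out. The share of calls that were higher was 72.9% in Smchd1 KO against WT (59.3% by DESeq2, 48.0% with 2 genotypes), 41.0% in Dux KO against WT (62.0% by edgeR, 58.1% by DESeq2) and 31.9% in Double KO against Smchd1 KO (48.2% and 50.8%). The causes were not tested.

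Of the 7 genes, 1 passed in Smchd1 KO against WT (0 to 1 with a replicate left out), 0 in Double KO against Dux KO (0 to 0), 1 in Dux KO against WT (0 with no filter, 0 to 1), 1 in Double KO against Smchd1 KO (1 to 1) and 0 in the interaction (1 by DESeq2, 0 to 1). Some changes turned sign, among them those of Gm364 in Double KO against Smchd1 KO (-0.88) and of Slc13a5 in Double KO against Dux KO (-0.57). The ranges with a replicate left out were -0.21 to 0.37 for Gm364 in Smchd1 KO against WT; in Double KO against Dux KO -1.05 to 0.96 for Gm364, -0.066 to 0.10 for Pgrmc1, -0.075 to 0.12 for Aard and -1.36 to 0.17 for Slc13a5; in Dux KO against WT -0.20 to 0.35 for Gpc4, -0.31 to 0.64 for D14Ertd668e and -0.42 to 0.23 for Slc13a5; and for Gm364 -1.96 to 0.049 in Double KO against Smchd1 KO and -1.12 to 0.89 in the interaction. In Double KO against Dux KO, Gm364 was -0.023 with a pseudocount of 0.1 and -0.016 with chromosome medians centred, which gave -0.041 for Pgrmc1. Gpc4 was -0.052 in Dux KO against WT from the first technical run alone. In the interaction Gm364 was 0.056 with a pseudocount of 2, 0.50 by edgeR, 0.52 by DESeq2 and 0.025 from the first run alone. Phf6 was 0.021 in quad KO against Tet TKO with medians centred. Depth limits Gm9 most.

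The correlations did not settle whether replicate numbers pair the samples. Deviations of same-numbered samples correlated at 0.07, 0.47 and -0.13 for Double KO and Dux KO, where different numbers gave -0.37 to 0.20. For Dux KO and WT they correlated at 0.17, 0.17 and 0.03, where different numbers gave -0.20 to 0.07. For quad KO and Tet TKO they correlated at 0.01, 0.02 and -0.03, where different numbers gave -0.05 to 0.04. With the replicate number as a block, a fit without Smchd1 KO samples chosen after seeing the data for the first table, 2 genes passed in Double KO against Dux KO, 30 in Dux KO against WT with 0 of the 7 (Aard adjusted p = 0.0791), and 4913 in quad KO against Tet TKO, where the call of Setdb2 was lost (0.0522). For the comparisons with Smchd1 KO and the interaction, no paired analysis was possible because no label ties the Smchd1 KO columns to replicate numbers.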
